A study of Homo sapiens and Mus musculus with 74 samples.

Results

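The balance between ribosome footprints and mRNA was examined gene by gene in the kidney of WT mice. The 6 libraries used, of 74 in the series, were 3 Ribo-seq and 3 RNA-seq libraries labelled WT mouse kidney, and they were chosen by these labels alone. The mice were C57BL/6J males aged 10 weeks, and all 6 libraries carry intact Rpl41, the gene that was deleted by CRISPR in the KO mice of the same study. Kidney lysates for Ribo-seq were digested with RNase I in the presence of cycloheximide, and fragments of 17 to 34 nucleotides were kept, whereas RNA-seq used a poly(A)-selected, directional library. The study calls its replicates biological and counts them as mice, while which animal gave which library is not stated in the sources used here.

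Ribosome profiling sequences the short pieces of mRNA that translating ribosomes shield from nuclease. The number of such footprints on a coding sequence (CDS), set against the amount of the mRNA, is used as a measure of how heavily the message is translated, and is called translation efficiency (TE). The body controls TE of particular mRNAs through elements in their untranslated regions: hairpins in ferritin leaders that bind iron regulatory proteins, upstream open reading frames (ORFs) that govern stress response factors, and pyrimidine tracts at the start of mRNAs for the translation machinery. In the kidney most RNA comes from tubule cells, above all from the proximal tubule, which takes back sugar, phosphate, amino acids and filtered protein.

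Here TE is the log2 ratio of footprints to RNA from the scaled read counts of 1 transcript per gene, namely that with the longest annotated protein. A TE of 0 means equal CPM, read counts scaled to library size, in both assays after TMM scaling, a method that sets library sizes so that most genes do not differ. Values are compared between assays and not between genes per length unless this is stated. On the per-length scale footprints were divided by CDS length and RNA reads by transcript length, and the median coding gene was set to 0. The deposited counts are per transcript and were not limited here to the CDS, and genes without a protein hold footprint counts too. Footprints in untranslated regions can therefore enter TE on both scales. A gene was called where the adjusted p of edgeR's quasi-likelihood test was below 0.05. Genes with exact copies elsewhere in the genome need care on this scale: in pairs such as mt-Co2 and Gm28661 or Amd1 and Amd2 copies had nearly the same footprint counts, whereas RNA counts of at least 1 copy were near 0. Whether both assays were counted with the same setting for reads that map to several places is not given in the sources used here, so the TE of repeated genes and that of other genes cannot be compared on equal terms.

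Over these transcripts the Ribo-seq libraries held 4710874 to 8814331 counts and the RNA-seq libraries 16517047 to 20087794. Replicates were alike within an assay, with Pearson's r across coding genes of 0.981 to 0.986 for Ribo-seq and 0.977 to 0.989 for RNA-seq on log2(CPM + 1), and counts of each pair of replicates differed by more than sampling noise, with a chi-square per degree of freedom of at least 5.71. Between assays r was 0.775 to 0.824. Genes without a protein took a larger part of the footprint counts, since 78.7% to 80.6% of them fell on coding genes against 94.2% to 96.1% of RNA counts. The 13 kidney markers together reached 15500 to 18100 CPM in Ribo-seq and 14000 to 15900 in RNA-seq. The 6 neural markers together stayed between 5.39 and 10.8 CPM in all 6 libraries. The globin genes Hba-a1 and Hbb-bs together were at 1210 to 1440 CPM in Ribo-seq and 352 to 524 in RNA-seq, and the other 4 blood and immune markers at 233 to 364 and 227 to 271. One Ribo-seq library stood apart in pancreatic enzyme genes, since 14 such genes, chosen after their values were seen, together reached 1170 CPM in Ribo-seq replicate 1, 44.9 in replicate 2 and 142 in replicate 3, against 89.1 to 117 in RNA-seq. Most of the RNA-seq sum came from Cela1, and without it the other 13 genes were at 1080, 17.0 and 108 CPM in Ribo-seq and 1.74 to 5.33 in RNA-seq.

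Of 14571 coding genes tested, 3926 (26.9%) had more footprints than RNA and 5404 (37.1%) had fewer, so 64% were called in either direction. Over all 21618 genes tested 73.5% were called, 44.3% higher and 29.3% lower. The median TE was −0.16, with quartiles at −0.87 and 0.58. The split depended on scaling: with library totals alone 4804 genes were higher and 4284 lower at a median of 0.05, and with DESeq2's size factors 4354 were higher and 4536 lower. On the per-length scale 4655 were higher and 4593 lower, and counts per length are read against these. Large ratios were frequent, with 1536 called genes above a TE of 2 and 856 below −2. Among 7047 genes without a protein 93.2% were called, 80.1% higher and 13.1% lower, at a median of 7.25. Processed pseudogenes, which are copies of mRNAs inserted elsewhere in the genome, were higher in 4098 of 4127 cases with a median of 8.24. The filter on low counts keeps a gene with enough counts in either assay alone. Genes with RNA counts near 0 thus entered through their footprints, and their direction was set in advance. The shares for genes without a protein are therefore in part set by the filter. A call was the usual case, and counts of called members are read against the shares of all coding genes. Separate libraries were usual too, since the assays did not overlap in 10020 of the 14571 coding genes tested.

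Iron storage mRNAs had far fewer footprints than RNA reads. Ferritin heavy chain, Fth1, and ferritin light chain, Ftl1, form the shell that stores iron in cells, and their leaders carry the iron responsive element (IRE), a hairpin that iron regulatory proteins bind when iron is scarce. The pattern searched in leaders was a C, 5 bases, the loop CAGTGN and 5 bases able to pair with the first 5 (with G–T pairs allowed), on the transcript strand. It was found in 16 of 13916 leaders (0.115%), among them 5 of the 6 listed leader IRE genes. The hairpins of 4 of them are shown because the list turns on them. Capitals mark the loop, all lie in the 5′ UTR, and coordinates are GRCm38:
Fth1 (chr19:9982738-9982754, + strand): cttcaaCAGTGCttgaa
Ftl1 (chr7:45459785-45459801, − strand): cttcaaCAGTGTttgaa
Slc40a1 (chr1:45925471-45925487, − strand): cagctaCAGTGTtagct
Alas2 (chrX:150547464-150547480, + strand): cgtcctCAGTGCagggc

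Fth1 (ENSMUSG00000024661, chr19:9980598-9985098) had 2922, 1813 and 1910 footprint counts in Ribo-seq replicates 1 to 3 and 137432, 156097 and 96034 counts in the RNA-seq libraries. In scaled CPM this was 341 ± 43.5 (SD, n = 3) against 7551 ± 1318, and the assays did not overlap. The TE of Fth1 was −4.47 (SE 0.21, adjusted p = 3.1e-08), and 22.0% of its windows are repeated in the genome. Ftl1 had 2176, 1459 and 1142 footprints against 32750, 46176 and 21495 RNA counts, a TE of −3.0 (SE 0.23, adjusted p = 1.2e-06), again with separate libraries. In Ftl1, 89.3% of the 28-base windows of the CDS occur at further places of the genome, and the pseudogene Ftl1-ps1, which shares them, had 1819, 1242 and 1003 footprints but 66, 90 and 24 RNA counts.

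The other leader IRE genes lay closer to the median. Slc40a1, the iron exporter ferroportin, had a TE of −0.78 (SE 0.20, adjusted p = 0.0047), with 322, 219 and 113 footprints against 994, 1084 and 767 RNA counts. Alas2, the erythroid enzyme that starts heme synthesis, also had −0.78 (SE 0.22, adjusted p = 0.009). Epas1, a hypoxia factor in whose leader the pattern was not found, had −0.18 (SE 0.14, adjusted p = 0.28). So 4 of 6 members were lower, none was higher and the median was −0.78, and on the per-length scale 5 were lower at a median of −1.04. Among all coding genes 37.1% were lower, and per length 4593 of 14571 were. Across all 16 leaders with the pattern the median was −0.72 and the range ran from −4.47 in Fth1 to 5.89 in Ftl1-ps1. The 4 genes listed for an IRE in the 3′ end had a median of 0.91, with 3 higher and 1 lower, but the median was −0.09 with the longest coding transcript of each gene. Slc11a2, an iron importer, stood at 1.75 (SE 0.20) and Tfrc, the transferrin receptor, at 0.88 (SE 0.19), while the phosphatase gene Cdc14a stood at −1.04 (SE 0.22).

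Stress response genes with upstream ORFs had few footprints for their RNA. ATF4 is the transcription factor of the integrated stress response, and its main ORF is read mainly when initiation is limited. Its leader of 594 bases in the transcript used holds 3 upstream ORFs: one of 36 codons from base 120, one of 3 codons from base 399 and one of 59 codons from base 498, which runs past the main start at base 595 in another frame. The shortest, which lies in the 5′ UTR, is shown with its start, middle and stop codons in capitals (GRCm38, chr15:80255579-80255596, + strand):
Atf4 upstream ORF: accATGGCGTATTAGagg

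Atf4 (ENSMUSG00000042406, chr15:80255184-80257541) had 191, 85 and 93 footprint counts and 1917, 1910 and 1310 RNA counts, or 18.1 ± 1.88 against 99.8 ± 15.3 scaled CPM (SD, n = 3). Its TE was −2.46 (SE 0.16, adjusted p = 3.6e-07), and its libraries did not overlap between assays. Footprints on the upstream ORFs can be part of the Atf4 counts, which were not limited to the main ORF. Ddit3, which encodes the stress factor CHOP, was lower still in the entry used for the list, at −3.19 (SE 0.26, adjusted p = 1.9e-06), with 23, 13 and 15 footprints against 436, 508 and 269 RNA counts. Another gene entry with the symbol Ddit3 was not called, at −0.28 (SE 0.39, adjusted p = 0.53), so the low value holds for 1 entry only. Ppp1r15b, the constitutive subunit that lets eIF2α be dephosphorylated, had 464, 234 and 262 footprints against 1508, 1428 and 1707 RNA counts and a TE of −0.93 (SE 0.15, adjusted p = 0.00027), which lost its call on the per-length scale at −0.36 (adjusted p = 0.065).

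Of the 15 listed genes of this kind 10 were lower, none was higher and 5 were not called, at a median of −0.93, beside 37.1% lower among all coding genes. The count per length was 9 lower with a median of −0.70, beside 4593 lower of 14571 coding genes on that scale. Without genes that have repeated genome windows 7 of 12 were lower at a median of −0.83, beside 4255 (39%) lower and 2438 (22.4%) higher, 61.4% in all, among the 10907 coding genes with under 1% such windows. When the fit was made on these 10907 genes alone, 3310 were lower and 3181 higher at a median of −0.01. The highest member was Cebpb, a liver and fat cell factor made in several protein forms, at 0.40 (SE 0.24, adjusted p = 0.15), which passed with the replicate number as a block (0.44, adjusted p = 0.017), and Eprs, a tRNA synthetase, stood at 0.23 (SE 0.15, adjusted p = 0.2).

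mRNAs of the translation machinery had medians below that of all coding genes, and most of them have repeated sequence. Of 79 cytosolic ribosomal protein genes 49 were lower, 24 were higher and 6 were not called. Their median was −0.84, with a range from −5.21 in Rpl41 to 6.43 in Rps27. Among all coding genes 37.1% were lower and 26.9% higher. None of the 79 had under 1% repeated genome windows and 75 had repeats in at least 50% of them, so the list cannot be read apart from its pseudogenes. Rpl41, the smallest ribosomal protein, had 85, 41 and 50 footprints against 5721, 7502 and 3695 RNA counts, a TE of −5.21 (SE 0.25, adjusted p = 3e-08) and −4.21 per length. The transcript used here is that with the longest annotated protein, 46 amino acids. Few footprint positions exist in so short a CDS, but the value stayed low per length (adjusted p = 2.7e-07, edgeR). The paper describes a shorter protein for RPL41. Rps27, a small-subunit protein, had the reverse pattern, with 468, 223 and 318 footprints against 10, 16 and 4 RNA counts, and 100% of its windows are repeated. Rplp1, a protein of the ribosomal stalk, had a TE of −2.78 (SE 0.22) and Rpl4, of the large subunit, one of −1.83 (SE 0.18).

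Eef1a1, the factor that brings tRNAs to the ribosome, had 7491, 3460 and 4878 footprints against 52797, 51253 and 43872 RNA counts, a TE of −1.85 (SE 0.18, adjusted p = 6.2e-06). Pabpc1, the poly(A)-binding protein, had 924, 402 and 601 against 5327, 5086 and 4529, a TE of −1.59 (SE 0.17, adjusted p = 1.5e-05). Neither gene's libraries overlapped between assays, and 89.7% and 45.9% of their windows are repeated. Both belong to the 18 other mRNAs listed for a terminal oligopyrimidine start. Of these 10 were lower and 4 higher (37.1% and 26.9% of all coding genes) at a median of −0.60. The lowest was Eef1b2, an exchange factor for elongation, at −2.37 (SE 0.23), and the highest Nap1l1, a histone chaperone, at 1.29 (SE 0.12), which turned to −0.04 when the longest coding transcript of the gene was used.

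Selenoproteins carry selenocysteine, which is inserted at a UGA codon that would otherwise end translation. Of 20 tested genes (24 were listed, and 4 fell below the filter on low counts) 11 were lower, 4 were higher and 5 were not called, with a median of −0.76. Among all coding genes 37.1% were lower and 26.9% higher. Per length 10 of the selenoprotein genes were lower and 2 higher at a median of −0.30. On that scale 4593 of 14571 coding genes were lower and 4655 higher. With counts summed per gene the selenoprotein median was −0.42. Gpx3, the plasma glutathione peroxidase made in the proximal tubule, had 20722, 16312 and 14619 footprints against 505541, 592253 and 381273 RNA counts and a TE of −3.41 (SE 0.23, adjusted p = 4.7e-07). Selenop, the selenium carrier of plasma, had a TE of −1.45 (SE 0.16, adjusted p = 1.6e-05), with 884 ± 104 against 2407 ± 292 scaled CPM (SD, n = 3). For both genes every footprint library lay below every RNA-seq library. Gpx4, which removes lipid peroxides, lay above 0 at 0.46 (SE 0.14, adjusted p = 0.014), but it fell to 0.00 per length and to −0.02 with counts summed per gene, and without Ribo-seq replicate 3 the adjusted p was 0.052. Selenoi, an enzyme of phospholipid synthesis, was highest at 0.54 (SE 0.17, adjusted p = 0.014), and without Ribo-seq replicate 1 it stood at 0.47 (adjusted p = 0.064).

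The polyamine pathway showed no common direction, with 5 of 13 tested members higher and 4 lower (26.9% and 37.1% of all coding genes) and a median of 0.14. Odc1, the first enzyme of polyamine synthesis, had 2105, 720 and 1510 footprints against 14347, 11647 and 15977 RNA counts and a TE of −1.93 (SE 0.28, adjusted p = 0.00011). Of its windows 85.1% are repeated in the genome, and processed pseudogenes share them, Gm7993 with 55.4% the most. Amd1, which supplies the aminopropyl donor, had 364, 183 and 182 against 465, 396 and 361 and a TE of 0.59 (SE 0.14, adjusted p = 0.0027), which with all transcripts fitted was 0.27 (adjusted p = 0.16). Its near-identical copy Amd2 had nearly the same footprints, 338, 178 and 178, but 6, 12 and 7 RNA counts, and so a TE of 6.12 (SE 0.23). Reads of such copies cannot be told apart, and the values of Odc1, Amd1 and Amd2 are uncertain in that sense.

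Genes that mark the proximal tubule spanned a wide range. Of 24 listed, 11 were higher, 6 lower and 7 not called, with a median of 0.38. Among all coding genes 26.9% were higher and 37.1% lower. On the per-length scale 8 of the 24 were higher and 5 lower at a median of 0.04. On that scale 4655 of 14571 coding genes were higher and 4593 lower. In these whole-kidney samples fewer cells of a type and less RNA per cell cannot be told apart. Both assays are labelled kidney, but whether their libraries held the same mix of cells was not tested. Lrp2 (ENSMUSG00000027070, chr2:69424340-69586065), which encodes the large uptake receptor megalin, had 39349, 24527 and 18300 footprints against 32880, 32584 and 27923 RNA counts. In scaled CPM this was 4100 ± 459 against 1823 ± 86.0 (SD, n = 3), with a TE of 1.17 (SE 0.15, adjusted p = 5e-05) and no overlap between assays. Slc34a1, the main phosphate transporter of this segment, had 3594 ± 365 against 5289 ± 98.4 scaled CPM and a TE of −0.56 (SE 0.15, adjusted p = 0.0073), which became −0.33 (adjusted p = 0.11) when genes with repeated genome windows were left out of the fit.

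The lowest proximal tubule gene was Kap (ENSMUSG00000032758, chr6:133849851-133853762), the androgen-regulated kidney protein of mice, with 21112, 17266 and 17556 footprints against 529613, 469848 and 549681 RNA counts. Its TE was −3.36 (SE 0.25, adjusted p = 9.5e-07). Kap and Gpx3 were both abundant in RNA, at 30470 ± 4480 and 28690 ± 4273 scaled CPM (SD, n = 3) against 2977 ± 728 and 2706 ± 515 in footprints. The highest was Slc4a4, the sodium bicarbonate transporter of the basal membrane, at 4.32, which is described with its isoforms below.

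In the distal nephron and collecting duct 4 of 20 genes were higher and 8 lower, with a median of −0.15. This was near the values of all coding genes, of which 26.9% were higher and 37.1% lower at a median of −0.16. Umod, which encodes uromodulin, the most abundant protein of normal urine, had 19204, 11733 and 9796 footprints against 46373, 43657 and 56832 RNA counts. Its TE of −0.50 (SE 0.18) was past the threshold (adjusted p = 0.026) by little: it was not without Ribo-seq replicate 1 (−0.41, adjusted p = 0.12), without Ribo-seq replicate 2 (−0.53, 0.063), without Ribo-seq replicate 3 (−0.49, 0.075) or without RNA-seq replicate 3 (−0.33, 0.054). Fxyd2, the small gamma subunit of the sodium pump, had 3584, 2464 and 2513 footprints against 38812, 41381 and 31495 RNA counts and a TE of −2.29 (SE 0.17, adjusted p = 7.3e-07). Its protein has 70 residues in the transcript used, and on the per-length scale its value was −0.15 (adjusted p = 0.46). Aqp3, a water channel, was highest at 1.03 (SE 0.23, adjusted p = 0.002).

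Podocyte and glomerular vessel genes had a median of 0.11, with 5 of 16 higher and 2 lower (26.9% and 37.1% of all coding genes). The podocyte genes Synpo, an actin organiser, and Podxl, a surface sialoprotein, were lower at −2.20 (SE 0.22) and −0.80 (SE 0.16), and Podxl stood at 0.18 per length. The scaffold gene Magi2 was higher at 3.75 (SE 0.41), from 150, 74 and 57 footprints against 29, 7 and 15 RNA counts, whereas a further Magi2 transcript with a longer 3′ UTR had 159, 134 and 116 RNA counts. Immune and blood genes had a median of 0.18, with 4 of 14 higher and 2 lower, beside the same shares of all coding genes. The beta-globin genes Hbb-bt and Hbb-bs, which share most of their windows, stood at 3.18 (SE 0.22) and 1.05 (SE 0.19), and the macrophage receptor gene Csf1r at −0.81 (SE 0.13). Of 12 neuron and glia genes 5 passed the filter on low counts, and Snap25, Syt1 and Gfap had at most 11 counts in any library. Of the 5, 2 were higher and 1 lower, at a median of 0.66. Mbp, a myelin gene with other products outside glia, was at 1.88 (SE 0.36) and reversed to −1.14 with the longest coding transcript.

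Nuclear-encoded genes of the respiratory chain were lower in 41 of 78 cases (52.6%) and higher in 11, with a median of −0.45, beside 37.1% lower among all coding genes. Of 78 mitochondrial ribosomal protein genes 38 (48.7%) were lower and 18 higher with a median of −0.34. With under 1% repeated windows, 14 of 30 respiratory chain genes were lower and 3 higher, and 22 of 44 mitochondrial ribosomal protein genes were lower and 10 higher. Among all such coding genes 39% were lower. With repeated genes left out of the fit, the list medians were −0.11 and −0.11, beside −0.01 for all coding genes kept. Per length 39 respiratory chain genes were lower and 14 higher at a median of −0.42. Of the mitochondrial ribosomal protein genes 24 were lower and 31 higher at a median of 0.10, so that list changed sign. On that scale 4593 of 14571 coding genes were lower and 4655 higher. Atp5b, the catalytic subunit of ATP synthase, had 1973 ± 231 against 3145 ± 164 scaled CPM (SD, n = 3) and a TE of −0.67 (SE 0.15, adjusted p = 0.0023). Atp5k, a small ATP synthase subunit, was lowest at −1.82 (SE 0.19), and Mrpl30 and Mrpl12, of the large mitochondrial ribosomal subunit, were at −1.68 (SE 0.18) and −1.23 (SE 0.15). The highest members, Atp5g2 at 7.63 and Mrpl23 at 6.61, had 7 to 22 and 1 to 10 RNA counts, and 100% and 65.2% of their windows were repeated. Cycs, the electron carrier cytochrome c, which is fully repeated too, had 2016, 1260 and 1353 footprints against 735, 904 and 437 RNA counts and a TE of 2.57 (SE 0.22).

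The 13 protein genes of the mitochondrial genome fell into 2 sets of opposite sign, which differed in how much of their sequence is repeated in the nuclear genome. A stretch of nuclear chromosome 1 holds copies of several of them. The first 28 bases of mt-Co2, a subunit of cytochrome oxidase, occur unchanged in the nuclear gene model Gm28661, and are shown to make this visible (GRCm38, whole window in lower case):
mt-Co2 (chrM:7013-7040, + strand): atggcctacccattccaacttggtctac
Gm28661 (chr1:24615538-24615565, − strand): atggcctacccattccaacttggtctac

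mt-Co2 had 11500, 8022 and 8453 footprints and Gm28661 had 11499, 8023 and 8453, a difference of at most 1 count in each library. Their RNA counts were 2, 5 and 2, and 4, 5 and 9. The 6 genes with over 99% repeated windows (mt-Co2, mt-Atp8, mt-Atp6, mt-Nd4l, mt-Co3 and mt-Nd3) had TE from 3.82 to 12.94 and RNA counts from 0 to 949. The other 7, with 0% to 66.7% repeated windows, had TE from −4.82 in mt-Nd1 to −2.24 in mt-Nd5 and RNA counts from 102308 to 820801. mt-Co1, the catalytic subunit of the oxidase, had 32189, 23760 and 22986 footprints against 463475, 441480 and 522135 RNA counts and a TE of −2.77 (SE 0.22, adjusted p = 1.7e-06). mt-Cytb, of the cytochrome bc1 complex, was at −4.54 (SE 0.24). Footprints alone were more even, since all 13 genes lay between 1808 and 32189 counts.

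Replication-dependent histone genes had the highest TE of all lists. Their mRNAs end in a conserved stem-loop in place of a poly(A) tail, and RNA-seq here began with poly(A) selection. Of 68 listed genes 63 were tested, 59 were higher, 2 were lower and 2 were not called, with a median of 8.97 beside −0.16 for all coding genes. Members with RNA counts near 0 passed the filter through their footprints alone, so their direction was set in advance. The stem-loop pattern GGNNCTTNTNAGNNCC, searched on the transcript strand after the stop codon, was in 70 of 14115 3′ ends (0.496%), of which 41 belonged to these histones and 29 to other genes. The elements of 4 histone genes are shown because genes with the same element differ widely in TE. They lie in the 3′ UTR, capitals mark the pattern, and coordinates are GRCm38:
Hist2h2aa2 (chr3:96239781-96239802, − strand): aaaGGCTCTTTTCAGAGCCacc
Hist1h1c (chr13:23739509-23739530, + strand): aaaGGCTCTTTTCAGAGCCacc
Hist3h2a (chr11:58955169-58955190, + strand): aaaGGCTCTTTTCAGAGCCacc
Hist4h4 (chr6:136803995-136804016, − strand): aaaGGCCCTTTTCAGGGCCcac

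Hist2h2aa2, an H2A gene, had 1207, 593 and 682 footprints and no RNA count in any library, which is at least 703-fold higher against a floor of 3 counts per library, but its windows are all repeated. Of the 12 tested members with under 50% repeated windows 10 were higher, 1 was lower and 1 was not called, 6 had at most 3 RNA counts in each library and 3 had over 100 in every library. The next 3 examples were chosen after their values were seen. Hist1h1b, which encodes a linker histone, had 149, 103 and 90 footprints and no RNA count (at least 99.5-fold, 6.2% repeated windows). Hist1h1a had 46, 40 and 27 and no RNA count (at least 33.3-fold, 0.813% repeated). Hist4h4, an H4 gene, had 352, 184 and 157 footprints against 0, 6 and 1 RNA counts (2.46% repeated).

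Other members of the same family were well covered by RNA-seq. Hist1h1c had 2006, 1311 and 1321 footprints against 1228, 1329 and 1492 RNA counts and a TE of 1.58 (SE 0.16). Hist1h2bc, an H2B gene, had 592, 366 and 324 against 3465, 3527 and 3448, a TE of −1.66 (SE 0.12, adjusted p = 9.3e-07), and 100% of its windows are repeated. Hist3h2a stood at −0.49 (SE 0.14, adjusted p = 0.011). The 41 histones with the pattern had a median of 7.86, the 22 without it in the transcript used one of 9.50, and the 29 other genes with the pattern one of −0.20. The 11 replication-independent histone genes, whose mRNAs are polyadenylated, had a median of −0.46 with 1 higher and 5 lower (26.9% and 37.1% of all coding genes). Among these H3f3b, an H3.3 gene, had −0.66 (SE 0.12, per length 0.77), Cenpa, the centromere histone, −1.82 (SE 0.38), and H2afz, the H2A.Z gene, 2.56 (SE 0.13) with 93.6% repeated windows.

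The listed long noncoding RNAs, a chosen set, lay mostly at the opposite end. Of 20 tested, 16 were lower and 4 higher, with a median of −2.73. This did not hold for whole classes of such genes. Of 416 genes annotated as lincRNA 47.6% were lower and 38.9% higher, at a median of −0.73. Of 897 antisense genes 35.3% were lower and 41.9% higher, at a median of 0.27. Neat1, the scaffold RNA of paraspeckles, had 154, 67 and 30 counts in Ribo-seq against 28725, 32375 and 17236 in RNA-seq and a TE of −7.01 (SE 0.36, adjusted p = 5.5e-08). Malat1, a nuclear RNA, had 4230, 3369 and 867 against 46532, 80216 and 20573, a TE of −2.77 (SE 0.51, adjusted p = 0.0006), and varied widely between libraries of both assays. Gas5, a host of small nucleolar RNAs, had −4.42 (SE 0.26). The highest, Rmrp, the RNA of an RNase complex and not polyadenylated, had 803, 349 and 202 against 6, 8 and 6. Counts of Ribo-seq reads on such RNAs need not come from ribosomes.

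Immediate early genes showed no common direction, with 5 of 19 higher and 8 lower (26.9% and 37.1% of all coding genes) and a median of 0.02. Klf4 was lowest at −1.36 (SE 0.36), with footprints of 80 in replicate 1 and 13 and 21 in the others, Jund stood at −0.72 (SE 0.13), and Egr3 was highest at 2.99 (SE 0.44) from 29, 16 and 10 footprints against 3, 10 and 4 RNA counts. Genes for secreted and extracellular matrix proteins were mostly higher: 20 of 24, with 2 lower and a median of 0.91, beside 26.9% higher among all coding genes. Col6a3, a chain of collagen VI, led with 849, 350 and 199 footprints against 272, 420 and 276 RNA counts and a TE of 1.78 (SE 0.26, adjusted p = 0.00012). Its scaled CPM was 64.1 ± 23.3 against 18.8 ± 3.76 (SD, n = 3), and replicate 1 was highest in Ribo-seq. Lama5, a laminin chain, and Klk1, a kallikrein, were lower at −0.97 (SE 0.17) and −0.95 (SE 0.17). These proteins are long, with a median of 1459 residues, and per length 9 were higher and 2 lower at a median of 0.40. Of 14571 coding genes 4655 were higher and 4593 lower on that scale.

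The top of the whole ranking was occupied by genes with near-identical copies. Hsd3b4, a steroid dehydrogenase gene, ranked 1 with 5501, 3980 and 2385 footprints and no RNA count in any library, at least 3379-fold higher against the floor of 3 counts. All of its windows are shared with Gm10681, and its neighbour Gm4450, which shares 92.1%, had 949, 1143 and 422 RNA counts. Srp54b, a subunit of the signal recognition particle, had 1513, 907 and 819 footprints against none (at least 925-fold), and shares all windows with Srp54a and 91.1% with Srp54c. Amy2a2, a pancreatic amylase gene, had 4075, 28 and 239 footprints against none. Its bound rests on Ribo-seq replicate 1, the library with the most pancreatic enzyme footprints, as it was at least 887-fold with that library, at least 152-fold without it and at least 29.7-fold in replicate 2 alone.

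The bottom was held by genes with no footprints. Igip, which encodes a peptide of 53 residues, had none against 984, 898 and 743 RNA counts, at least 104-fold lower, and overlapped no other gene. Gm10401 had none against 317, 340 and 228 (at least 35.0-fold lower), and 100% of its transcript lies opposite exons of Sppl3. Nox1, an oxidase of the gut, had none against 209, 214 and 130 (at least 21.8-fold lower), and 15.6% of it lies opposite Cstf2. Among the 100 lowest coding genes 52 were overlapped by exons on the opposite strand, and 23 of them over at least 25% of the transcript, against 24.6% and 4.53% of all coding genes tested. Among the 100 highest 59 had at least 50% repeated windows, against 7.09% of all coding genes tested. The RNA-seq kit keeps strand, but whether counting used it is not given in the sources used here, so the part of opposite genes was not tested.

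With a mean of at least 10 CPM in RNA-seq and 1 CPM in Ribo-seq and under 1% of windows shared with other genes, 4278 called coding genes had separate libraries. The lowest were Cntd1 at −6.37 (SE 0.33), with 12, 6 and 8 footprints against 1936, 2554 and 1115 RNA counts, and Sycp3, a meiotic chromosome protein, at −6.09 (SE 0.23), with 61, 29 and 36 against 7669, 9456 and 5126. These lie opposite other genes over 60.5% and 47.0% of their transcripts, and Chpt1, opposite Sycp3, had 31983, 30286 and 27271 RNA counts. Tmod1, at −5.02 (SE 0.48), lies opposite Tstd2 over 40.8%. The others, Fam193b at −5.08 (SE 0.30), Snhg11 at −4.86 (SE 0.26) and mt-Nd1 at −4.82 (SE 0.24), had no exons on the opposite strand. Snhg11 is a small nucleolar RNA host whose longest annotated protein has 87 residues.

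The 6 highest genes of this kind were Slc4a4, Aldh3a2, a fatty aldehyde dehydrogenase, Gpam, an enzyme of triglyceride synthesis, Met, the receptor of hepatocyte growth factor, Wdfy3, an autophagy scaffold, and Erbb4, a neuregulin receptor, with TE from 4.32 to 3.31. Slc4a4 (ENSMUSG00000060961, chr5:88886818-89239653) had 8415, 4796 and 3953 footprints against 558, 1007 and 640 RNA counts (SE 0.21, adjusted p = 3.8e-08). A call and separate libraries were conditions for entering this set, so neither adds support. The transcript used has a 3′ UTR of 182 bases, and Slc4a4-207, with one of 4183 bases, had 8787, 4983 and 4116 footprints but 9321, 7486 and 9981 RNA counts. Aldh3a2 had 2243, 1494 and 1319 footprints against 212, 84 and 562 RNA counts, and its TE of 3.89 (SE 0.57) was 4.91 without RNA-seq replicate 3. Aldh3a2-202, with a 3′ UTR of 1457 bases in place of 1114, had 2241, 1498 and 1327 footprints but 2655, 2558 and 3092 RNA counts, and the TE was 0.74 with the longest coding transcript and 1.47 with counts summed per gene.

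Met stood at 3.35 (SE 0.37), but Met-203, with the same protein and a 3′ UTR of 2157 bases, had 4022, 3628 and 2981 RNA counts where the transcript used, which has none, had 261, 126 and 391, and with the longest coding transcript the TE of Met was −0.25. Gpam at 3.40 (SE 0.29) and Wdfy3 at 3.31 (SE 0.26) also had a transcript with a longer 3′ UTR, with 1752 to 1881 and 1809 to 2777 RNA counts. Erbb4, at 3.31 (SE 0.22) with 823, 637 and 605 footprints against 237, 151 and 169 RNA counts, already had a 3′ UTR of 7855 bases in the transcript used.

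Counts were also compared in 570 pairs of transcripts from 542 genes that share one CDS but differ by at least 1000 bases of 3′ UTR. The median log2 ratio of the longer to the shorter was 0.02 in each Ribo-seq library, and 1.87, 2.08 and 1.48 in the RNA-seq libraries. The longer had more RNA counts in 97.5% to 97.9% of pairs. RNA counts differed between such transcripts more than footprint counts did. Both transcripts of a pair hold the same CDS, and the longer has more bases for RNA reads, so the choice of pairs favoured this direction. The size of the contrast varied between pairs, with quartiles of 0.60 and 3.23 in RNA-seq replicate 1. How RNA reads were assigned to transcripts was not tested.

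Across coding genes the median TE rose with the share of repeated genome windows. It was −0.25 for the 9402 genes with none, −0.03 for the 1291 genes with 10 to 50%, 0.95 for the 766 with 50 to 90% and 3.29 for the 266 above 90%, of which 77.8% were higher. Among 567 coding genes with at most 3 RNA counts in each library and footprints above, 193 (34.0%) had at least 50% repeated windows and 167 had none. Conversely, 106 coding genes had at most 3 footprints in each library and RNA above, and 42 of these lay opposite exons of another gene. In the 7548 coding genes with under 1% repeated windows and no overlapping exons the median was −0.18, with 1747 higher and 2785 lower.

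**Figure D1:**
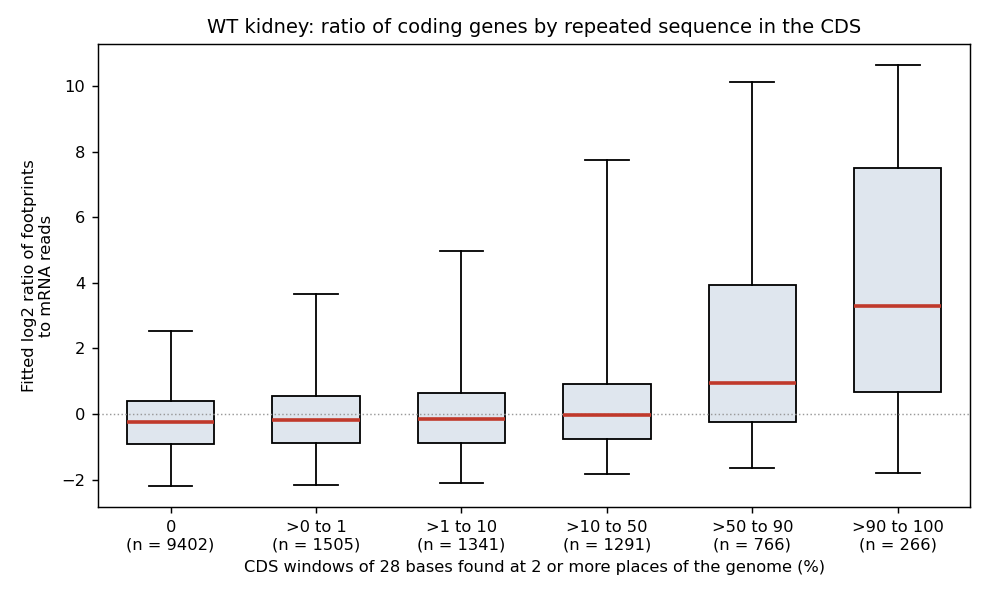
TE of coding genes (log2 of footprints over RNA) by the share of their CDS windows of 28 bases found at 2 or more places of the genome (boxes span the quartiles, whiskers the 5th to 95th percentile). The median rises from −0.25 with no such window to 3.29 above 90%.

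Protein length moved with TE, and its direction depended on the scale. Genes with proteins of up to 100 residues had a median of −0.73, and those above 1600 residues one of 0.38, with 45.9% higher. Per length the same bins had medians of 0.38 and −0.16. Spearman's rho between protein length and TE across 14571 coding genes, which share the same 6 libraries and are not independent replicates, was 0.15, and −0.14 per length. In the 7548 genes with few repeats and no overlaps these were 0.26 and −0.07. The very long scaffold protein gene Ahnak, with 5656 residues, shows both sides, as its 3453, 1415 and 909 footprints against 2059, 2140 and 1991 RNA counts gave a TE of 1.14 (SE 0.21, adjusted p = 0.00058) and 0.38 per length (adjusted p = 0.12). The share of the transcript that is CDS had the largest rho, 0.30, and −0.24 per length.

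ATG triplets in the leader and GC content kept their sign on both scales. Genes with no ATG in the leader had a median of −0.02 and those with more than 5 one of −0.51, rho being −0.14 and −0.08 per length. For GC content of the CDS rho was −0.18 and −0.19 per length, and the median went from 0.15 in genes under 45% GC to −0.48 in those above 60%. Leader length had a rho of −0.15 that was −0.01 per length.

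The same measure was taken in KO kidney, in 3 Ribo-seq and 3 RNA-seq libraries of Rpl41-/- mice that share no library with WT. Rpl41 itself had 0, 1 and 2 footprints and 3, 3 and 8 RNA counts there, against 41 to 85 and 3695 to 7502 in WT kidney. Of 14216 coding genes tested in both genotypes, 9073 were called in WT and 10433 in KO kidney, where 73.2% of all coding genes tested were called, 31.8% higher and 41.4% lower. Calls shared in direction numbered 8213, which is 90.5% of WT and 78.7% of KO calls, and 14 were opposite. Fth1 stood at −4.73 (SE 0.20), Gpx3 at −3.56 (SE 0.26), Met at 4.74 (SE 0.29) and Aldh3a2 at 5.78 (SE 0.50) in KO kidney. Gpx4 was at 0.46 in WT and −0.38 (SE 0.16, adjusted p = 0.047) in KO kidney, and Umod at −0.50 and 0.35 (SE 0.17, adjusted p = 0.09). The difference between genotypes was not tested here.

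TE in kidney was set against that in WT brain, 3 Ribo-seq and 3 RNA-seq libraries, by the assay by tissue term for 10 genes. Of 16530 coding genes tested, 2956 (17.9%) were higher and 1276 (7.72%) lower in kidney, 25.6% in all, and over all 25774 genes, coding or not, these shares were 21.9%, 5.79% and 27.6%. The split turned with scaling: with library totals 1967 were higher and 2461 lower. The median term was 0.16 with TMM and −0.14 with library totals. Amd1 was higher in kidney by 1.64 (SE 0.21, adjusted p = 1e-05), with 582, 312 and 645 footprints against 4770, 5747 and 4008 RNA counts in brain. Gpx4 was higher by 1.79 (SE 0.23, adjusted p = 1.1e-05) and mt-Co1 by 1.19 (SE 0.30, adjusted p = 0.0069). These 3 genes passed in all 16 alternatives run.

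The other 7 did not pass, but 6 of them passed in some of the 16 alternatives. For Atf4 the term was 0.52 (SE 0.20, adjusted p = 0.072), and it passed in 2 alternatives, without kidney Ribo-seq replicate 2 (0.63, adjusted p = 0.048) and without kidney RNA-seq replicate 1 (0.62, adjusted p = 0.044). For Fth1 it was −0.65 (SE 0.28, adjusted p = 0.1), and it passed in 4, namely with library totals (−0.97, adjusted p = 0.0069), with DESeq2 (−0.93, adjusted p = 0.0056), without kidney RNA-seq replicate 3 (−0.76, adjusted p = 0.041) and without brain RNA-seq replicate 2 (−0.82, adjusted p = 0.038). For Odc1 it was −0.86 (adjusted p = 0.074) and for Pabpc1 −0.52 (adjusted p = 0.091), and with the replicate number as a block these passed, at adjusted p = 0.0012 and 0.048. Over all alternatives Odc1 passed in 6, among them without kidney Ribo-seq replicate 3 (−1.15, adjusted p = 0.012) and without kidney RNA-seq replicate 2 (−1.01, adjusted p = 0.038), and Pabpc1 in 5, among them without kidney Ribo-seq replicate 3 (−0.69, adjusted p = 0.019). Eef1a1 passed in 2 and Ppp1r15b in 1. Rpl41, which passed in none, had the smallest term, 0.09 (SE 0.29, adjusted p = 0.94), with 70, 37 and 76 footprints against 11532, 12199 and 8981 RNA counts in brain.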

How the data were processed

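The authors trimmed reads with cutadapt, removed rRNA reads, aligned to the mouse genome with STAR, with multimapping reads allowed, and counted with featureCounts of Subread. Versions, the strand setting and the setting for multimapping reads in counting each assay are not given in the sources used here. They deposited whole-number read counts per transcript, without normalization. Of 142604 transcripts listed for mouse, 141374 matched GENCODE M21 (GRCm38), in 55174 genes, 22484 of them coding. A table of human transcripts has 28 columns named for mouse samples, which were assigned to no sample and not used.

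For each coding gene the transcript with the longest protein was taken, and for other genes the longest transcript. Counts were tested with edgeR 4.0.16 in R 4.3.3 (filterByExpr, TMM, quasi-likelihood F-test, two-sided, Benjamini-Hochberg over the 21618 genes tested), with assay as the only term. The standard error is the size of the fold over the square root of F. A gene with at most 3 counts in each library of one assay was given a bound from that floor, 0.491 CPM in Ribo-seq and 0.176 CPM in RNA-seq. Floors cover counting error only. Windows of 28 bases of each CDS were looked up in the whole genome on both strands and in transcripts of other genes. Between tissues the assay by tissue term was tested over 12 libraries. In simulated counts 95% of 200 genes changed by 2 on the log2 scale were recovered and 6 of 15038 unchanged genes were called, out of 15237 tested, and for the tissue term 89% and 10 of 15289. These counts had a set dispersion of 0.05 and few changed genes, whereas 73.5% of genes tested were called in WT kidney. The simulation therefore cannot give the error rate of the calls reported here.

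Ribo-seq and RNA-seq libraries with the same replicate number deviated together from their group means, with r of 0.202, 0.283 and 0.281 over 9895 genes, against −0.285 to 0.0774 between different numbers. So the numbers were taken to pair the samples, and the block was run as an alternative. Other alternatives were DESeq2 1.42.0, library totals, a centred median, all transcripts, counts summed per gene, lengths, a minimum of 10 counts, shared windows left out and each library left out. The longest coding transcript, genes overlapping others left out, repeated windows left out and bounds without each Ribo-seq library were chosen after seeing the data.

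Named genes were the 3 highest and 3 lowest coding genes with separate libraries, the 6 highest and 6 lowest with at least 10 CPM in RNA-seq, 1 CPM in Ribo-seq and under 1% shared windows, a set of 20 genes, and the highest and lowest members of each list. Epas1, Slc40a1, Alas2 and the histones Hist1h1a, Hist1h1b, Hist1h1c, Hist3h2a and Hist4h4 were added after their values were seen. Of these, 2 genes that were list members are not reported here. Members, lists and tests were chosen with earlier results of these data known. The coordinates and sequences are from GRCm38 and GENCODE M21 transcripts.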

Additional observations from a re-analysis of the deposited data

Results flagged for a closer look

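For 3 of the 10 genes whose ratio of footprints to RNA was compared between kidney and brain, the test of the assay by tissue term found a difference. It was 1.64 on the log2 scale for Amd1, whose ratio fitted within each tissue was 0.59 in kidney and −0.91 in brain. It was 1.79 for Gpx4, which had 0.46 in kidney and −1.18 in brain, and 1.19 for mt-Co1, which had −2.77 and −3.81. All windows of Amd1, 47.2% of those of Gpx4 and 66.7% of those of mt-Co1 are repeated in the genome. The part of these repeats in the tissue difference was not tested.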

How the results depend on the processing

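The counts of coding genes called in WT kidney kept within 1.5 times of 3926 higher and 5404 lower under each alternative run, except that the lower genes numbered 3226 when genes with shared windows were left out and 3310 when genes with repeated genome windows were left out, where 4255 of the same 10907 genes had been lower in the fit to all genes. Leaving out 1 library gave 3523 to 4111 higher and 4446 to 5597 lower in WT kidney, 4263 to 5202 and 5181 to 6235 in KO kidney, and 2413 to 3186 and 960 to 1382 for the tissue term. Genes higher in kidney than brain numbered 1967 with library totals and 1128 with at least 10 counts in every library, and genes lower numbered 2461 with library totals and 2795 with DESeq2's size factors. The cause was not tested.

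With the replicate number as a block 4016 genes were higher and 5477 lower, and 9112 of 9330 calls were kept. For the tissue term the block gave 3184 higher and 1464 lower. Among the named genes it changed no call in WT kidney other than that of Cebpb, and no tissue term other than those of Odc1 and Pabpc1.

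Of 83 named genes 66 kept direction and call in each alternative, and 79 whenever 1 library was left out. Direction turned with the longest coding transcript for Met (−0.25), Nap1l1 (−0.041) and Mbp (−1.14), with counts summed per gene for Gpx4 (−0.018) and Aqp4 (2.31), and per length for H3f3b (0.77), Eprs (−0.51), Podxl (0.18) and Aqp4 (1.31). List medians turned sign in at least 1 alternative for replication-independent histones (up to 0.37), the 3′ end IRE (down to −0.09), polyamine (−0.01), mitochondrial ribosomal protein (0.10), distal nephron (0.06), immune and blood (−0.18), neuron and glia (−0.13) and immediate early genes (−0.21), and the other lists kept theirs. Footprint depth limits low genes, since a count of 3 is 0.491 CPM.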

Other observations

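Genes of the exocrine pancreas, chosen after their values were seen, had footprints in WT kidney that differed between replicates. Ctrb1, a chymotrypsinogen, had 843, 8 and 45 footprints in Ribo-seq replicates 1 to 3 and no RNA count in any library. Pnlip, the pancreatic lipase, had 636, 2 and 17, and Cpb1, a carboxypeptidase, 448, 4 and 27, again with no RNA count. Of 14 such genes 9 had no RNA count in any library. Cela1, an elastase, had 813, 143 and 160 footprints and 2054, 2323 and 1384 RNA counts, and the other 4 had at most 64 RNA counts in a library. Replicate 1 held the most footprints for each of the 4 genes named, and the source of these reads was not tested.

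Genes other than histones that carry the stem-loop pattern in their 3′ end included Klf7, a transcription factor, at −2.14 (adjusted p = 0.00015, edgeR), and Ucp2, a mitochondrial carrier, at −1.51 (adjusted p = 3.1e-05). Snrpa, a spliceosome protein, stood at 0.41 (adjusted p = 0.041). These genes were also chosen after their values were seen.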
